A study of Mus musculus with 24 samples.

Results

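Brain was compared with heart, kidney and liver for trimethylation of histone H3 at lysine 4 (H3K4m3), read by chromatin immunoprecipitation and sequencing, in mouse tissue. The table of normalized values has 8 columns, each called a library here, of which 2 are brain (1 frozen, 1 FFPE) and 6 are heart, kidney and liver, each organ again with 1 frozen and 1 FFPE library. FFPE means fixed in formalin and embedded in paraffin. For H3K4m3 the labels list 2 FFPE samples and 1 frozen sample per organ, so an FFPE library may be 1 sample or 2 merged ones. From frozen organs a tissue core was taken and crosslinked with formaldehyde, whereas FFPE tissue was deparaffinized and its chromatin extracted with heat, so the preservation types also differ in how chromatin was obtained. The labels give no strain, sex, age, brain region or number of mice, and no group carries a genotype or drug. Separate animals are not stated either, and the p-values therefore reflect only how far these libraries scatter, a scatter that may be technical. All genes with a mean log2 value of at least 0 over the 8 libraries were kept, which left 25680 of 27179 genes. Depth was 2513301 reads in frozen brain and 4811825 in FFPE brain, and between 1792394 and 5275085 in the other organs.

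H3K4m3 sits on the nucleosomes around the start sites of genes that are transcribed or poised for transcription. In brain it covers promoters of genes for excitability, synapses and neuronal identity, many of which are little marked in other tissues. A level below is the deposited log2 value of a gene, on the scale of log2 counts per 1e6 reads (CPM), with no input subtracted. The deposited values also carry a scaling of each library that is not stated. A difference is the level in brain minus the mean level of heart, kidney and liver on the log2 scale, adjusted for preservation, with its standard error (SE) from the model. A gene passed when its Benjamini-Hochberg adjusted p from limma, over all genes tested, was under 0.05. The tissue is bulk, so fewer cells of a type and less of the mark per cell cannot be told apart.

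At this threshold 2583 genes (10.1%) differed between brain and the mean of the other organs. Of the genes tested, 1420 (5.53%) were higher in brain and 1163 (4.53%) lower. Among the higher genes 308 differed at least 4-fold, against 99 of the lower genes. All 1420 higher and all 1163 lower genes had the same sign within frozen and within FFPE tissue. This is not a separate check, because the test uses the mean of these 2 differences and genes where they disagree seldom pass. The median difference of the higher genes was 1.69 in frozen tissue and 1.14 in FFPE tissue, and that of the lower genes -1.31 and -0.99. Both brain libraries lay above all 6 others for 1942 genes (7.56%) and below all 6 for 1191 genes (4.64%). No gene (0%) passed a limma test of whether the brain difference itself differed between frozen and FFPE tissue. That test had 2 residual degrees of freedom, and 674 of 25680 genes had an unadjusted p under 0.05, a share below 0.05. The number of passing genes rested on the frozen brain library, on the intensity trend of the spread and on the preservation term. It was 326 without frozen brain, 1598 without FFPE brain, 4291 without FFPE liver, 217 with no intensity trend and 472 with no preservation term. A set of 147 genes, 104 higher and 43 lower, passed in all 15 alternatives.

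**Figure D1:**
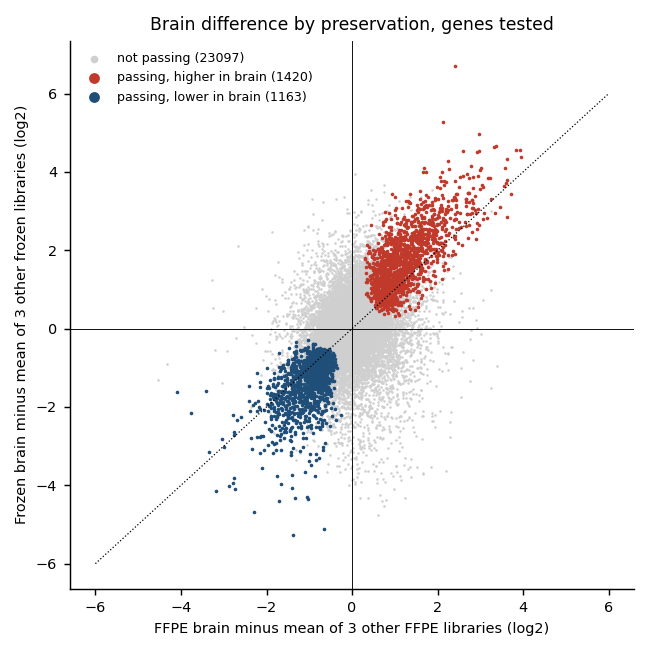
Brain difference (log2) of each gene tested, in FFPE libraries on the x axis and in frozen libraries on the y axis, with 1420 genes passing higher in red, 1163 passing lower in blue and the rest in grey. Every passing gene lies in the upper right or lower left quadrant, which the test itself favours. Many red points lie above the dotted line of equality, where the frozen difference is the larger.

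Against single organs, 1622 genes (6.32%) passed against heart, 1616 (6.29%) against kidney and 3306 (12.9%) against liver. Of the higher genes, 488 passed against each of the 3 organs singly, 465 against 2, 407 against 1 and 60 against none. Among the lower genes 249 passed against each of the 3 organs, 368 against 2, 515 against 1 and 31 against none. Liver was the organ farthest from brain for 893 of the higher and 587 of the lower genes. Without frozen brain the counts against heart, kidney and liver were 270, 205 and 747, and without FFPE liver 2836, 2811 and 5318. With no intensity trend no gene passed in any of the 3 limma comparisons. The median difference of the higher genes was 1.24 against heart, 1.34 against kidney and 1.68 against liver.

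The brain label was first checked on 4 genes. Slitrk1, a neuronal adhesion protein that shapes synapses, stood at 8.38 in frozen and 7.89 in FFPE brain, and between 3.56 and 5.51 (median 4.72) in the other organs. Grin1, the obligatory subunit of NMDA-type glutamate receptors, stood at 7.25 in frozen and 7.27 in FFPE brain, against 4.04 to 5.50 elsewhere. Gria2, a subunit of AMPA-type glutamate receptors, stood at 7.42 and 7.01 in brain, against 4.51 to 5.53. Mbp, a structural protein of myelin, stood at 7.35 and 6.77 in brain, against 4.96 to 5.73. In none of these genes did a brain library overlap with another organ. The differences were 3.59 (SE 0.36), 2.46 (SE 0.28), 2.17 (SE 0.23) and 1.63 (SE 0.20), with adjusted p of 3.17e-05, 7.94e-05, 4.83e-05 and 1.08e-04. Slitrk1, Grin1 and Mbp missed the threshold when the intensity trend was left out, and Gria2 passed in every alternative.

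The 14 named genes with the largest higher differences fell into a few recurring kinds. Ldoc1, Cdr1os, Nap1l2, Bex1, Zcchc18 and Pou3f4 lie on the X chromosome, and Mir9-3, Mir124a-1hg, Mir129-2, Mir124a-3 and Mir124-2hg are microRNA genes or their host transcripts. Ldoc1, a gene derived from a retrotransposon, had 58 reads in frozen and 62 in FFPE brain, no read in the frozen library of any other organ, and 2, 16 and 21 in FFPE heart, kidney and liver. Its mean over the other organs was -0.47, so it was kept by the filter through its brain values. The fitted difference of 4.56 (SE 0.98; adjusted p = 0.00715) combines 2.40 in FFPE with 6.71 in frozen tissue, and its size depends on the offset given to libraries without reads. Nap1l2, a neuronal nucleosome assembly protein, stood at 7.02 and 6.52 in brain and between 1.94 and 4.11 elsewhere (difference 3.84, SE 0.47; adjusted p = 1.18e-04). Ttc9b, a tetratricopeptide repeat protein, stood at 6.41 in frozen and 5.95 in FFPE brain, and between 1.76 and 3.27 elsewhere, a 13.1-fold difference. Fbll1, a fibrillarin-like protein, stood at 6.72 and 5.72 in brain, against 1.35 to 3.46. That both brain libraries lay above every other library in all 14 genes follows from the rule that chose them. Without frozen brain the adjusted p of Ldoc1, Mir9-3, Pou3f4, Cdr1os, Mir129-2, Bex1, Mir124a-3, Zcchc18, Fbll1 and Mir124-2hg rose to between 0.0516 and 0.708, and without FFPE brain that of Mir9-3 and Mir124a-3 to 0.0675 and 0.113.

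**Figure D2:**
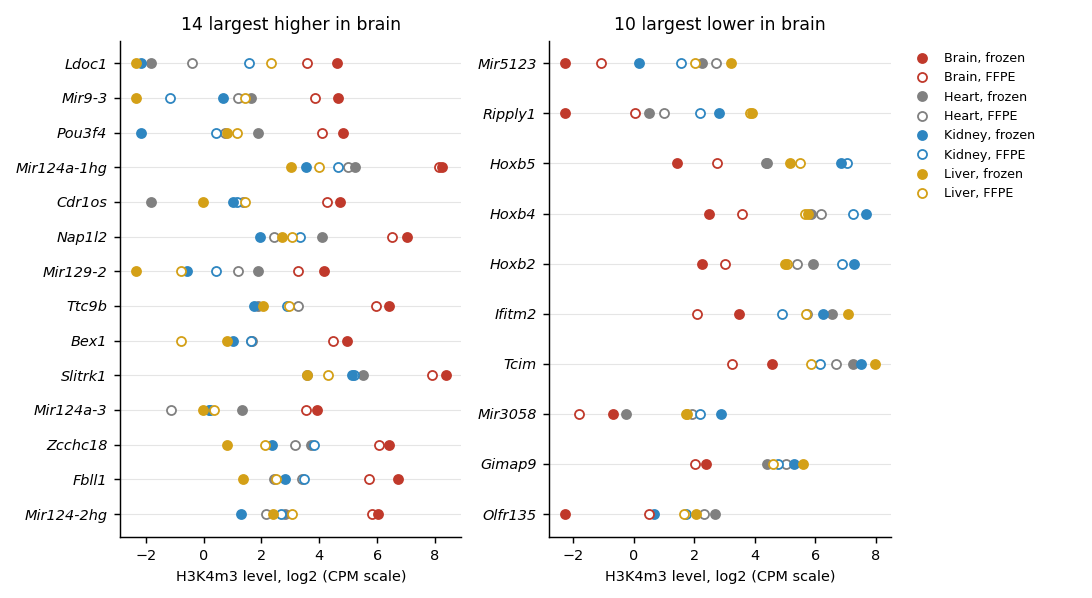
H3K4m3 levels (log2, CPM scale) of the 14 largest higher and 10 largest lower named genes, 1 point per library, filled for frozen and open for FFPE. Both red brain points lie to the right of all others on the left panel and to the left of all others on the right panel, as the rule that chose the genes required.

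MicroRNAs are short RNAs that repress messages carrying a match to their seed, bases 2 to 8. The miR-124 and miR-9 families are abundant in the nervous system, and both are made from several genomic copies. Of 17 brain microRNA genes and host transcripts tested, from 35 listed, 6 were higher in brain. The filter on the mean over all 8 libraries bears on this list: 34 of its genes are in the table, and Mir129-2, Mir7b and Mir219a-2, 3 of the 17 kept, had a mean below 0 in the other organs and were kept through their brain values. The count is therefore a description of the genes kept, not of the list. Mir124a-1hg, a host transcript of miR-124 on chromosome 14, had 734 reads in frozen and 1502 in FFPE brain. The other 6 libraries held 20 to 141 reads. Its level was 8.25 and 8.15 in brain against 3.01 to 5.23 elsewhere, a 15.7-fold difference that passed in every alternative (adjusted p = 3.25e-06). Mir124-2hg on chromosome 3 stood at 6.02 and 5.84 in brain against 1.31 to 3.05 elsewhere, and Mir124a-3 on chromosome 2 at 3.92 and 3.54 against -1.12 to 1.34. Transcripts of all 3 miR-124 loci thus passed.

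The miR-9 copies gave the same mature arm but not the same call. Mir9-3, with 60 reads in frozen and 76 in FFPE brain against 0 to 11 elsewhere, passed (difference 4.02, SE 0.91), and so did its host Mir9-3hg (2.45, SE 0.26; adjusted p = 4.66e-05). Mir9-2 had a difference of 3.12 (SE 1.04; adjusted p = 0.0786) and Mir9-1 of 1.93 (SE 0.62; adjusted p = 0.0695). Neither passed. Mir3093, which lies beside Mir9-1 on chromosome 3 and was singled out after its values were seen, did pass (3.51, SE 0.79; adjusted p = 0.00968). Mir129-2 had 43 and 50 reads in brain and at most 7 in any other library (difference 3.75, SE 0.75). It lies within Mir670hg, which also passed (2.02, SE 0.46). A microRNA gene lies inside its host, so reads over the pair may be counted for both and these are not independent calls. Without frozen brain 2 of the 6 remained past the threshold. Arms of Mir9-3, Mir129-2 and Mir3093, from RefSeq on GRCm38.p6 with the seed in capitals, show the seeds these 3 loci encode. The 5p arm of miR-9 is identical for the copies on chromosomes 3, 7 and 13, and miR-129 and miR-3093 carry other seeds.

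miR-9-5p: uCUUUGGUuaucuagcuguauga
miR-129-2-3p: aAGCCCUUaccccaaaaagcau
miR-3093-5p: cGCACCCCgcggagcucacacu

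On the lower side 7 microRNA genes passed, of 156 tested genes with a Mir symbol, host transcripts included. That share of 4.49% was near the 4.53% over all genes. Of the same 156, 8 were higher (5.13%, beside 5.53% over all genes). The 7 lower genes, a set found after the values were seen, were Mir193a, Mir1932, Mir574, Mir1954, Mir3058, Mir3073a and Mir5123. They held between 1 and 24 reads over both brain libraries and between 65 and 364 over the other 6. Mir1932 had 11 reads in frozen and 13 in FFPE brain and 44 to 80 elsewhere (difference -2.49, SE 0.34; adjusted p = 3.11e-04), and Mir193a had 8 and 9 against 9 to 65 (difference -2.13, SE 0.45). Mir5123 had no read in frozen and 2 in FFPE brain against 2 to 23 elsewhere. These loci overlap or adjoin other genes, and which transcript the mark belongs to was not tested. Both arms of Mir193a are given to set its seeds beside those of the higher genes. Neither seed is shared with them.

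miR-193a-3p: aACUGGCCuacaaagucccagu
miR-193a-5p: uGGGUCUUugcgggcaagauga

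Transcription factors of neural development came next. Not all in the first list commit cells to a neuronal fate: Hes5, which passed higher, Olig1 and Olig2 are counted again in the glial lists below. Of 29 neurogenic basic helix-loop-helix (bHLH) and zinc finger factors, 16 were higher in brain and none lower, with a median difference of 1.23. Neurod1, which drives neuronal differentiation and granule cell survival, stood at 7.40 in frozen and 7.62 in FFPE brain and between 3.77 and 4.73 elsewhere. Neurod2, its relative in excitatory neurons, stood at 7.23 and 7.38 against 3.08 to 5.32, and Nhlh2 at 5.92 and 6.39 against 3.20 to 4.74. The brain libraries of all 3 lay above every other library. The differences were 3.23 (SE 0.25; adjusted p = 5.83e-06), 2.86 (SE 0.25; 1.44e-05) and 2.10 (SE 0.25; 1.07e-04), and each passed in every alternative. Bhlhe22, a factor of cortical projection neurons, had 7.80 in frozen and 6.63 in FFPE brain against 4.99 to 6.15. Leaving out frozen brain left 5 of the 16 past the threshold.

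Among 54 neural homeobox, Sox, Zic and forebrain factors, 21 were higher and 3 lower. The Zic zinc finger genes, which act in dorsal neural tube and cerebellar granule cells, gave several higher genes. Zic1 stood at 7.59 in frozen and 7.98 in FFPE brain and between 4.12 and 4.96 elsewhere, and Zic2 at 7.41 and 7.74 against 3.99 to 5.05. Zic1 (difference 3.14, SE 0.22) and Zic2 (2.94, SE 0.20) shared an adjusted p of 3.25e-06. Zic4 and Zic5, named after their values were seen, also passed, with differences of 2.85 and 2.81. Barhl2, a homeobox factor of retina, spinal cord and diencephalon, stood at 6.64 and 7.14 in brain against 3.14 to 4.68 (difference 3.02, SE 0.25). Pou3f4, a POU factor of the developing ear and forebrain, had 4.81 and 4.10 against -2.15 to 1.88. In the same list 3 genes (5.56%, near the 4.53% over all genes) were lower: Lhx6, a factor of interneurons (-1.09), Ebf3 (-0.95) and Meis2 (-0.65). All 3 lost their calls without frozen brain, with adjusted p between 0.223 and 0.629, and Meis2 also without FFPE brain (0.307). Meis2 missed without frozen heart or either kidney library (0.0656 to 0.0932), and Ebf3 without frozen kidney (0.0528). Without frozen brain 9 higher genes and no lower gene of the list passed.

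Because H3K4m3 marks promoters, stretches of 120 bases before the start site are shown for genes from either side of the comparison, with every CG step in capitals. They are reference sequence from RefSeq on GRCm38.p6, for the named genes with the smallest p that have a promoter entry. Zic1 (chr9:91365769-91365888, minus strand), Pcdh10 (chr3:45378278-45378397, plus strand) and Neurod1 (chr2:79456637-79456756, minus strand) were higher in brain and hold 10, 13 and 16 CG steps in the stretch.

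Zic1: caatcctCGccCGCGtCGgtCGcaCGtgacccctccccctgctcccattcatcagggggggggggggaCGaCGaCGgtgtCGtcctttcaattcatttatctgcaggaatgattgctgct
Pcdh10: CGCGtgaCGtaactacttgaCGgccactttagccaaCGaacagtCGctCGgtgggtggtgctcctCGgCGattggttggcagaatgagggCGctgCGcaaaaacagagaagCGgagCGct
Neurod1: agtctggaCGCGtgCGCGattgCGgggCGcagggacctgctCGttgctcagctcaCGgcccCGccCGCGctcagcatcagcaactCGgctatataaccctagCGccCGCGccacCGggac

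Ifitm2 (chr7:140955962-140956081, minus strand), Hoxb4 (chr11:96318147-96318266, plus strand) and Ajuba (chr14:54577662-54577781, minus strand) were lower in brain and hold 2, 4 and 3 CG steps. Each stretch is a part of its promoter entry. Over the whole entry Ifitm2, Hoxb4 and Ajuba hold 4, 14 and 13 CG steps, and Zic1, Pcdh10 and Neurod1 hold 31, 24 and 26. For Ifitm2 the start in the promoter table lies inside the annotated span of the gene, whereas the other stretches adjoin the end of the span. These 6 stretches are a description of the named genes. No comparison over all promoters was made, because too few genes had an entry.

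Ifitm2: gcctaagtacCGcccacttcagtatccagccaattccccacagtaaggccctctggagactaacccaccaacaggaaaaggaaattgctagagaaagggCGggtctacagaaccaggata
Hoxb4: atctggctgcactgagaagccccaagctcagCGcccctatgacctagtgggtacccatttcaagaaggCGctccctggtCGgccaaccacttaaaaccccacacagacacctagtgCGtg
Ajuba: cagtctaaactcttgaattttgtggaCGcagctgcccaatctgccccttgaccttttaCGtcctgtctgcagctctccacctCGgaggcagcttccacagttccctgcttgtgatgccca

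Lists of brain region markers held different shares of passing genes, and the difference between lists was not tested. Of 30 cerebellum markers, 18 were higher in brain and none lower, with a median difference of 1.75. Of 20 markers of cortex and forebrain excitatory neurons 9 were higher (median 0.91), of 25 markers of striatum and basal forebrain 3 were higher and 1 lower (median 0.32), and of 39 markers of diencephalon, midbrain and hindbrain 1 was higher and 4 lower (median -0.24). Cbln1, a granule cell protein that anchors parallel fibre synapses, stood at 7.33 in frozen and 7.53 in FFPE brain and between 3.38 and 5.07 elsewhere (9.73-fold; adjusted p = 3.25e-06). Gabra6, a GABA receptor subunit nearly confined to cerebellar granule cells, stood at 6.72 and 6.84 against 2.98 to 4.01 (9.76-fold; adjusted p = 1.19e-05). Both brain libraries lay above all others for each. Without frozen brain 13 of the 18 cerebellum markers passed, against 4 of the 9 forebrain markers, and none of the 3 striatal markers.

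The cerebellar genes that passed include granule cell and granule precursor genes such as Neurod1, Pax6 (2.38) and the Zic genes. Genes known from Purkinje cells were split. Slc1a6 and Lhx1 passed higher, whereas Pcp2 (-0.10), Car8 (-0.59) and Skor2 (-0.36) did not pass. Atoh1 (0.40) did not pass either. In the forebrain list Nptx1, a secreted pentraxin (2.54), and Slc17a7, a vesicular glutamate transporter (1.97), passed. Emx1 (0.49) and Cux2 (0.33) did not. Pax6, Slc1a6, Lhx1 and the genes that did not pass were picked from the lists after their values were seen. Gpr6 and Drd1, receptors of striatal projection neurons, and Gad1, a GABA-synthesizing enzyme, made up the 3 striatal calls, and Lhx6 the lower one. In the last list Barhl2 was higher, and Foxa1, Foxa2, Gata2 and Tcf7l2, which also serve endoderm, blood or gut, were lower. Without frozen brain none of these 4 lower genes passed in limma (adjusted p of Foxa2 0.144, Gata2 0.0783 and Tcf7l2 0.0960), and 2 members were higher. The labels do not give the region that was sampled.

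**Figure D3:**
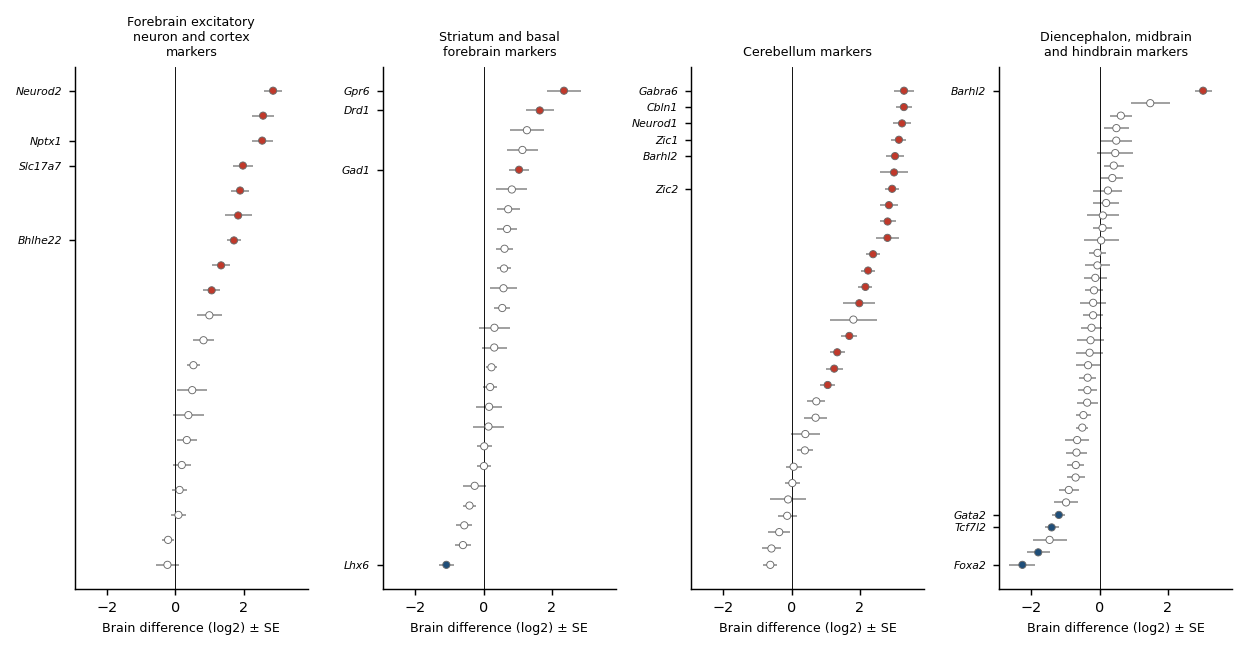
Brain difference (log2, with 1 SE on each side) of every tested member of 4 regional marker lists, ordered within each list, with the genes named by the rule labelled. Red points passed higher, blue points passed lower and white points did not pass. The cerebellum panel holds 18 red points of 30, the panel of diencephalon, midbrain and hindbrain 1 of 39.

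RNA-binding proteins that set neuronal splicing and message stability were higher for 14 of 23 and lower for none (median 1.11). Celf4, a CUG-binding splicing regulator, stood at 7.90 in frozen and 7.48 in FFPE brain and between 5.24 and 6.50 elsewhere (difference 2.08, SE 0.20; adjusted p = 2.42e-05). Elavl4, which stabilizes neuronal messages, stood at 6.71 and 6.64 against 3.63 to 4.88, and Elavl3 at 6.94 and 6.86 against 4.06 to 5.30. The groups did not overlap for any of these genes. Of 20 neuronal chromatin regulators 6 were higher: Nap1l5, Nap1l2, Nap1l3, Dpf1, Actl6b and Prdm8. Nap1l5, an intronless nucleosome assembly gene, stood at 7.06 and 6.71 against 2.94 to 4.61 (7.90-fold). Dpf1, a subunit of the neuronal BAF complex, differed by 1.64 and lost its call without frozen brain (adjusted p = 0.189). Without that library 3 of the 14 RNA-binding and 2 of the 6 chromatin genes passed.

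A family of small X-linked genes, Bex, Tceal, Armcx, Gprasp and their neighbours, many of which act in vesicle traffic or as signalling adaptors, was higher for 14 of 27 and lower for none (median 1.18). Bex1, an adaptor of neurotrophin signalling, stood at 4.95 in frozen and 4.48 in FFPE brain and between -0.78 and 1.69 elsewhere. Magee1 stood at 7.23 and 6.73 against 4.04 to 6.40. The Bex and Tceal genes are near-identical to their neighbours, so the split of reads among them is uncertain. Of the 14, 2 passed without frozen brain and 5 without FFPE brain. Over the whole X chromosome 69 of 1008 genes were higher (6.85%) and 12 lower (1.19%), where all chromosomes together gave 5.53% and 4.53%.

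Ion channels of the axon and dendrite were next. Of 93 potassium channel genes 32 were higher in brain and 4 lower (median 0.68). Kcna1, the Kv1 channel that restrains firing at the axon, had the smallest p of all genes tested: it stood at 8.99 in frozen and 8.65 in FFPE brain and between 4.68 and 5.91 elsewhere. The difference was 3.36 (SE 0.20), or 10.3-fold, with an adjusted p of 1.97e-06. Kcna2, its partner subunit, stood at 7.85 and 8.11 against 4.87 to 6.51 (4.79-fold), and Kcnc1, a Kv3 channel of fast-spiking neurons, at 8.27 and 8.30 against 4.03 to 5.90 (9.67-fold). None of the 3 overlapped with another organ. The 4 lower channels (4.30%, near the 4.53% over all genes) were Kcnk5, Kcna7, Kcnj8 and Kcne4, which was outside the naming rule. Kcnj8, a subunit of vascular ATP-sensitive channels, stood at 3.76 and 3.59 in brain against 4.36 to 5.16. Adjusted p of Kcnk5, Kcna7 and Kcnj8 without frozen brain lay between 0.294 and 0.427, and in that setting 10 higher and no lower channels passed. Without FFPE brain Kcna7 and Kcnj8 had 0.0568 and 0.151, and for Kcnj8 they were 0.0577 and 0.0731 without frozen heart and without FFPE kidney.

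Voltage-gated sodium and calcium channels with the Hcn family gave 18 higher of 44 and none lower (median 0.75). Cacng2, an auxiliary protein that carries AMPA receptors to the synapse, stood at 6.15 in frozen and 6.05 in FFPE brain and between 2.78 and 3.87 elsewhere (7.44-fold; adjusted p = 1.38e-04). Scn2b, a sodium channel beta subunit, stood at 6.25 in both brain libraries against 3.96 to 4.90. All these brain values lay above the other organs. Without FFPE brain 8 of the 18 passed, and without frozen brain Cacng2 was the single member to pass, with Scn2b at an adjusted p of 0.101.

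Receptors for glutamate, GABA and glycine were higher for 28 of 52 and lower for none (median 1.22). Gabrb2, a beta subunit of GABA-A receptors, stood at 7.18 in frozen and 7.13 in FFPE brain and between 3.84 and 5.42 elsewhere (5.28-fold; adjusted p = 2.70e-05). Without frozen brain 7 of the 28 passed. Receptors for amines, acetylcholine, opioids and cannabinoids were a mixed group, with 11 higher and 3 lower of 59 (median 0.29). The lower share of 5.08% was near the 4.53% over all genes. Without frozen brain 2 of these receptors were higher and 1 lower. Cnr1, the cannabinoid receptor of nerve terminals, stood at 7.32 and 6.72 against 4.31 to 5.49, and Adra2c, an adrenergic receptor that limits noradrenaline release, at 6.63 and 6.35 against 3.88 to 4.93. The related Adra2b was lower, with a difference of -1.55. Adra2b stood at 4.77 and 4.68 in brain and between 5.47 and 7.86 elsewhere. Chrna2, also lower, overlapped with other organs (4.12 in FFPE brain, range elsewhere 4.00 to 5.43). Without frozen brain its adjusted p was 0.876, and Chrna2 also missed without frozen heart, FFPE kidney or frozen kidney (0.0795 to 0.0937).

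Adhesion G protein-coupled receptors were higher for 7 and lower for 2 of 30 (6.67% lower, beside 4.53% over all genes). Adgrb3, which binds C1q-like proteins at synapses, stood at 7.13 in frozen and 6.74 in FFPE brain and between 4.31 and 5.00 elsewhere (4.79-fold). Celsr3 and Celsr1, atypical cadherins of planar polarity and neuronal wiring, went in opposite directions (0.93 and -0.67). Celsr1 had 5.03 in frozen and 6.22 in FFPE brain and overlapped with the others (5.75 to 6.75), as did the other lower receptor, Adgrf5. Without frozen brain Adgrb3 alone of the list passed. Celsr1 then had an adjusted p of 0.883, and between 0.0616 and 0.161 without either heart or kidney library.

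The machinery of transmitter release was higher for 34 of 59 genes and lower for none (median 1.15). Rims2, an active zone scaffold, stood at 7.03 in frozen and 7.06 in FFPE brain and between 4.91 and 5.75 elsewhere (3.15-fold; adjusted p = 1.04e-04). Cadps, a priming factor of dense-core vesicles, stood at 6.57 and 6.48 against 3.88 to 4.93, and Syt4, a synaptotagmin, at 6.58 and 6.64 against 2.86 to 4.68. The brain libraries of these genes were alike and apart from the rest. Without frozen brain 1 of the 34 passed, with Cadps and Syt4 just short at adjusted p of 0.0501 and 0.0504, while 26 passed without FFPE brain. Postsynaptic scaffolds gave 13 higher of 32 and none lower. Among them Cnksr2 stood at 5.93 and 5.72 against 3.67 to 4.08, the X-linked Dlg3 at 6.63 and 6.38 against 4.82 to 5.47, and Magi2 at 7.85 and 7.48 against 5.72 to 7.38. Without frozen brain 2 of the scaffolds passed, with Cnksr2 at 0.0501, and without FFPE brain 8.

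Enzymes and transporters of the transmitters themselves gave 8 higher and 2 lower of 39 (median 0.32). The lower share of 5.13% was near the 4.53% over all genes. Slc17a7, which loads glutamate into vesicles, stood at 6.28 in frozen and 6.30 in FFPE brain and between 3.53 and 4.97 elsewhere. Slc1a2, the glutamate transporter of astrocytes, stood at 7.02 and 6.80 against 5.29 to 6.33. The lower genes include Ddc, an enzyme of amine synthesis that kidney also uses (-1.17). Without frozen brain no gene of this list passed, and the adjusted p of the 3 genes named here lay between 0.109 and 0.718. Ddc also missed without frozen heart or either kidney library (0.0651 to 0.0703).

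Adhesion proteins that join the sides of a synapse were higher for 33 of 55 and lower for none (median 1.27). Lrrtm2 and Lrrtm3, postsynaptic partners of neurexins, stood at 8.64 and 8.0 in frozen and at 8.20 and 7.78 in FFPE brain. Elsewhere Lrrtm2 lay between 4.22 and 6.13 and Lrrtm3 between 3.68 and 5.31. Lrrc4, a netrin-G ligand, stood at 7.65 and 7.25 against 3.72 to 5.07. The fold differences were 8.32, 9.19 and 7.66, and these 3 genes passed in every alternative. Nrxn3, a neurexin (2.37), and Slitrk2 (2.80) were among the 147 genes that passed throughout, a pair chosen after the values were seen. Without frozen brain 8 of the 33 passed.

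Clustered protocadherins, which give neurons individual surface identities, were higher for 7 of 57 (12.3%) and lower for none. The calls gathered at the C-type ends of the clusters: Pcdhac1, Pcdhac2, Pcdhgc3, Pcdhgc4 and Pcdhgc5 passed, as did Pcdha11 and Pcdha12. Pcdhac2 stood at 7.22 in frozen and 6.53 in FFPE brain and between 2.94 and 4.58 elsewhere (8.46-fold; adjusted p = 3.68e-05). Pcdhgc5 stood at 6.71 and 6.32 against 2.78 to 4.99, and Pcdhgc4 at 6.82 and 6.68 against 3.72 to 6.31. Members of the alpha cluster share their last exons, as do those of the gamma cluster, so the split of reads among them is uncertain. Without frozen brain 1 of the 7 passed and without FFPE brain 4, and with frozen brain left out Pcdhgc5 and Pcdhgc4 had 0.168 and 0.189. Of 35 other protocadherins and cadherins 11 were higher and 2 lower (5.71%, near the 4.53% over all genes). Pcdh10 stood at 8.25 and 7.71 in brain against 4.89 to 5.90, and Pcdh9 at 7.17 and 7.20 against 3.92 to 5.22. Without frozen brain 2 higher and 1 lower of these passed, and without FFPE brain 6 and 1. Pcdh12, a vascular protocadherin, was lower in brain, at 4.85 and 5.37 against 6.37 to 7.33 (difference -1.80, SE 0.20; adjusted p = 6.41e-05).

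Axon guidance genes gave 16 higher and 6 lower of 73. Epha5, an ephrin receptor of topographic maps, stood at 6.83 in frozen and 6.41 in FFPE brain and between 4.25 and 5.08 elsewhere (difference 1.99, SE 0.24). Its relative Ephb4, a receptor of venous endothelium, stood at 4.85 and 4.96 in brain and between 6.42 and 7.00 elsewhere (difference -1.85, SE 0.19). Both passed in every alternative. Robo4, the vascular member of the Robo family, stood at 4.00 and 4.56 against 4.98 to 6.58, and Nrp1, a receptor for semaphorins and VEGF, at 5.67 and 5.60 against 6.52 to 6.99. Without frozen brain 1 higher and 2 lower genes of the list passed, with Nrp1 at 0.0548, and without FFPE brain 9 and 3.

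Peptides and the proteins that sort them into dense-core vesicles were higher for 19 of 62 and lower for 1 (median 0.70). Nptx1, a pentraxin that clusters glutamate receptors, stood at 7.87 in frozen and 7.58 in FFPE brain and between 4.59 and 6.44 elsewhere. Chgb, a granin, stood at 6.83 and 6.56 against 2.04 to 4.40 (9.47-fold; adjusted p = 0.0586 without frozen brain). Nrtn, a ligand of the GDNF family, was the lower member, at 3.23 and 2.87 against 3.89 to 5.53 (0.0979 without frozen brain). In that setting 3 higher members passed. Cytoskeletal and motor genes of axon and dendrite gave the highest share of any neuronal list, 33 of 49 (67.3%), with none lower (median 1.28). The 33 include Actl6b and Arc, which are also counted among the chromatin regulators and the immediate early genes. Dclk1, a doublecortin-like kinase, stood at 7.63 and 7.64 in brain against 5.26 to 6.46. Mapk8ip2 and Mapk8ip1, kinesin cargo adaptors of the JNK pathway, stood at 7.05 and 7.34 in frozen and 6.68 and 6.79 in FFPE brain, against 3.67 to 5.01 and 4.81 to 5.98. Without frozen brain 6 of the 33 passed.

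Calcium, cyclic AMP and G protein signalling genes were higher for 25 of 62 and lower for 1 (median 0.85). Adcy8, a calcium-stimulated adenylyl cyclase, stood at 7.40 in frozen and 7.24 in FFPE brain and between 4.06 and 5.35 elsewhere (5.58-fold). Adcy1, the other cyclase of that kind, stood at 7.19 and 7.54 against 5.37 to 6.36, and Rgs8, a regulator of G protein signalling in Purkinje cells, at 6.79 and 6.69 against 3.79 to 6.04. The single lower member, Pde4b, overlapped with other organs (6.99 in frozen brain, 6.85 to 7.81 elsewhere). Its call was lost without either brain library (0.248 and 0.381), FFPE heart (0.0852) and either kidney library (up to 0.103). Without frozen brain 3 higher members passed.

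Markers of glia and of other cells held calls in both directions. Of 31 oligodendrocyte and myelin markers 8 were higher and 1 lower (median 0.43), and of 32 astrocyte and radial glia markers 8 were higher and 4 lower (median 0.57). Gpr37, a receptor of myelinating cells, stood at 6.26 in frozen and 5.71 in FFPE brain and between 3.53 and 4.41 elsewhere, and Ermn, a myelin cytoskeletal protein, at 5.41 and 5.23 against 3.08 to 4.04. Atp1b2, a sodium pump subunit of astrocytes, stood at 7.40 and 7.18 against 5.02 to 6.26. The lower astrocyte markers were Fgfr3, Nes, Cbs and Ndrg2, the last outside the naming rule. Nes, an intermediate filament of progenitors also present in muscle and vessels, stood at 4.93 and 5.26 in brain against 5.15 to 7.07. Without frozen brain 1 oligodendrocyte and no astrocyte marker passed, and the adjusted p of Gpr37, Ermn, Atp1b2, Fgfr3, Cbs and Nes lay between 0.0629 and 0.653. Nes and Cbs also missed without FFPE brain (0.0529 and 0.0869), and Cbs without FFPE heart or either kidney library (0.0742 to 0.0912).

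Of 28 microglia and macrophage markers none was higher and 1, Fcer1g, was lower, with a median difference of -0.34. The summed level of that list was 385 CPM in frozen and 508 in FFPE brain, and 486 to 662 elsewhere. Fcer1g, a signalling chain of Fc receptors, stood at 1.98 and 2.43 in brain against 2.42 to 4.25 and lost its call when any 1 library other than FFPE liver was left out (adjusted p 0.0599 to 0.517). Ependymal, choroid plexus and cilium markers gave 1 higher, Tppp3, and 2 lower, Folr1 and Cd24a, of 34 (2.94% and 5.88%), near the shares over all genes. Without frozen brain none of the 3 passed (adjusted p 0.167, 0.338 and 0.761), and Folr1 also missed without FFPE brain (0.0644) and without frozen kidney (0.0594), and Cd24a without frozen heart (0.0795) and frozen kidney (0.117). Of 30 meningeal and perivascular fibroblast markers 1 (Zic1) was higher and 2 (Foxc1 and Kcnj8) lower (3.33% and 6.67%). Of 16 red blood cell genes 1 (Sptb) was higher (6.25%, beside 5.53% over all genes). Sptb had an adjusted p of 0.518 without frozen brain. The red blood cell genes summed to 496 and 518 CPM in brain and to 350 to 495 elsewhere.

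**Figure D4:**
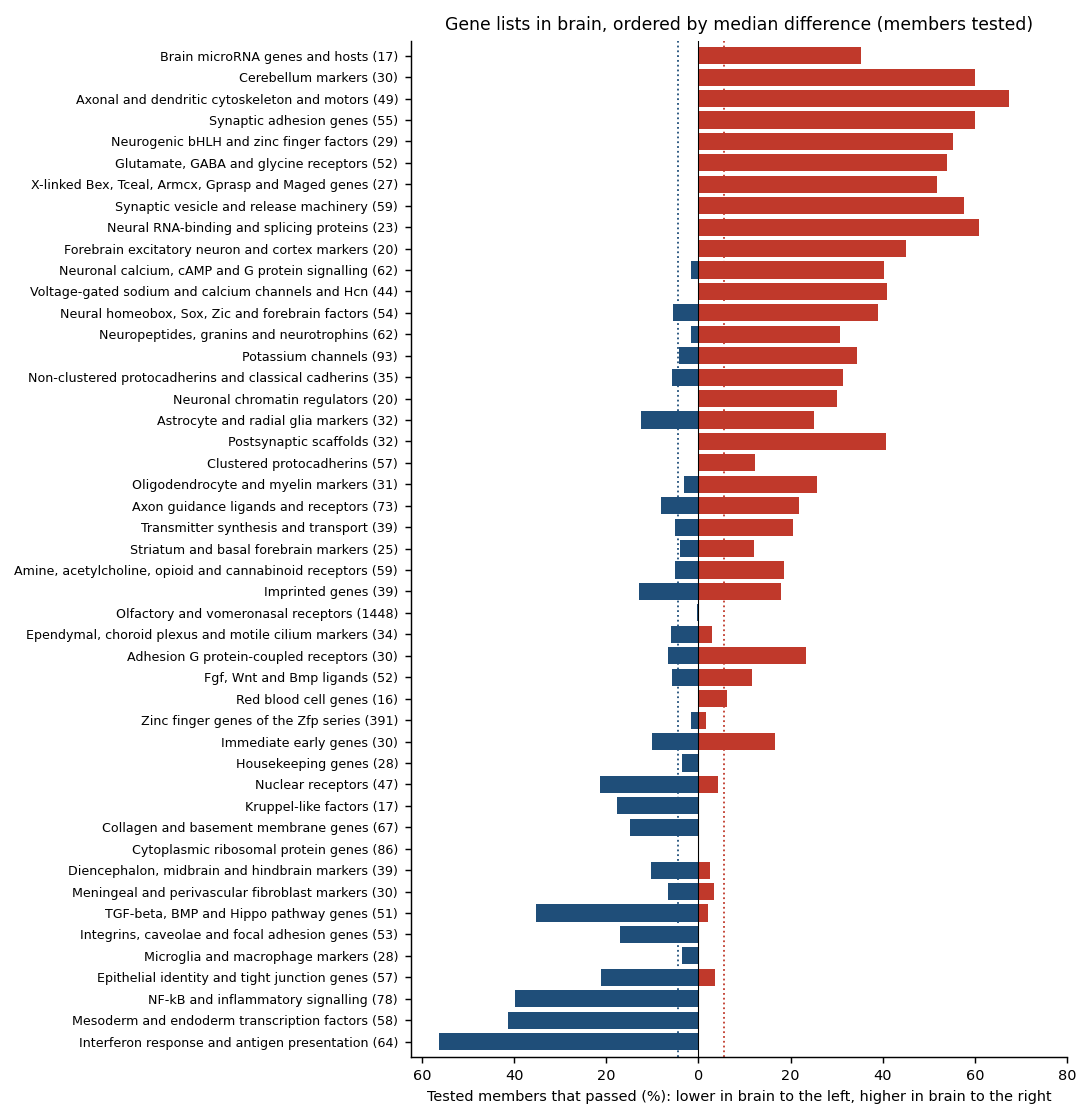
Share of tested members that passed higher (red, to the right) or lower (blue, to the left) in brain for each gene list, ordered by the list's median difference (over the genes kept by the filter, which for the microRNA list depends on the brain values), with dotted lines at 5.53% and 4.53%, the shares over all genes. The upper lists are neuronal, with up to 67.3% higher, and the lowest ones are interferon, mesoderm and endoderm, and inflammatory lists, with no member higher.

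Genes of the interferon response and antigen presentation had the highest share of lower genes among the lists, with 36 of 64 lower (56.2%), none higher and a median difference of -0.98. The list was lower against each organ, with medians of -0.91 against heart, -0.90 against kidney and -1.14 against liver. Ifitm2, a membrane protein that blocks viral entry, stood at 3.46 in frozen and 2.09 in FFPE brain and between 4.90 and 7.07 elsewhere (9.51-fold lower; adjusted p = 3.25e-06). Ifitm3, its close relative, stood at 3.51 and 2.83 against 4.52 to 7.12 (5.94-fold lower; adjusted p = 1.48e-05). The Ifitm genes are near-identical copies, so the split of reads between them is uncertain. Trim25, a ubiquitin ligase of the RIG-I pathway, stood at 5.34 and 5.23 against 6.70 to 7.90 (difference -1.97, SE 0.17). In all 3 genes both brain libraries lay below all 6 others, and each passed in every alternative.

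The same list holds the steps of antigen display. B2m, the light chain of class I molecules, stood at 4.45 in frozen and 3.52 in FFPE brain and between 4.84 and 6.28 elsewhere (difference -1.45, SE 0.26). It passed against each organ singly, and had adjusted p of 0.0556 without FFPE brain and 0.0709 without frozen brain. The peptide transporters Tap1 (-1.51) and Tap2 (-1.26), the immunoproteasome subunits Psmb8 (-1.76) and Psmb9 (-1.44), and the class I chain H2-K1 (-1.78) also passed, as did the factors Irf1 (-1.34), Irf7 (-1.50) and Irf9 (-1.01). They were picked from the list after their values were seen. H2 genes are members of a multigene family, and their counts are uncertain for that reason. Without frozen brain 11 of the 36 passed, and without FFPE brain 22.

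NF-kB and inflammatory signalling genes were lower for 31 of 78 (39.7%) and higher for none (median -0.57). Tnfrsf1a, the main receptor of tumour necrosis factor, stood at 4.53 in frozen and 3.78 in FFPE brain and between 6.03 and 6.68 elsewhere (4.38-fold lower; adjusted p = 1.79e-05). Ltbr, the lymphotoxin beta receptor, stood at 4.95 and 4.49 against 5.95 to 7.58 (4.11-fold lower), and Bcl3, a nuclear NF-kB cofactor, at 4.14 and 3.78 against 5.35 to 6.35 (3.90-fold lower). The brain libraries of all 3 lay below the other organs by more than the gap between frozen and FFPE brain. Without frozen brain 5 of the 31 passed, these 3 among them, and without FFPE brain 15.

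TGF-beta, BMP and Hippo pathway genes were lower for 18 of 51 (35.3%) and higher for 1, Chrd, an extracellular BMP antagonist (0.89; adjusted p = 0.0776 without FFPE and 0.265 without frozen brain). Ajuba and Limd1, LIM proteins that restrain the Hippo kinases, stood at 5.37 and 5.98 in frozen and at 5.17 and 5.31 in FFPE brain. Elsewhere Ajuba lay between 6.97 and 8.03 and Limd1 between 6.95 and 7.62. Smad6, an inhibitory Smad, stood at 5.92 and 5.01 against 6.89 to 7.72. The fold differences were 4.21, 3.11 and 3.52, and the 3 genes passed in every alternative. Without frozen brain 7 of the 18 passed.

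Transcription factors of mesoderm and endoderm were lower for 24 of 58 (41.4%) and higher for none, with a median of -1.33 against heart, -0.68 against kidney and -0.36 against liver. Tbx3, a T-box factor of heart conduction and limb, stood at 5.20 in frozen and 5.52 in FFPE brain and between 6.71 and 7.63 elsewhere. Snai2, a factor of epithelial-mesenchymal transition, stood at 3.84 and 4.04 against 5.42 to 6.95, and Foxc2, a factor of vessels and kidney, at 4.87 and 4.39 against 5.44 to 7.54. No brain value reached the range of the other organs. The differences were -1.78 (SE 0.19), -2.08 (SE 0.24) and -1.74 (SE 0.20), and these genes missed the threshold only with no intensity trend. Without frozen brain 9 of the 24 passed.

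**Figure D5:**
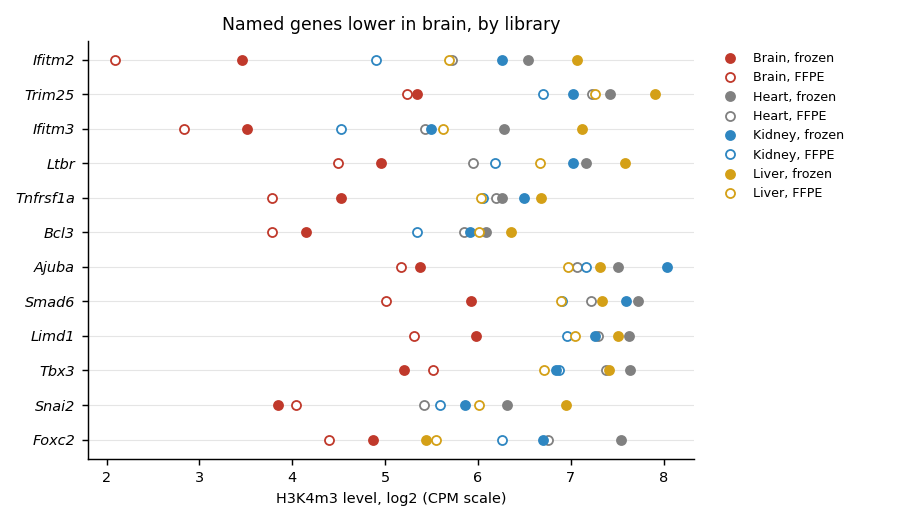
H3K4m3 levels (log2, CPM scale) in every library for the named lower genes of the interferon, NF-kB, TGF-beta and Hippo, and mesoderm and endoderm lists, filled for frozen and open for FFPE. The red brain points lie to the left of all other organs for each of the 12 genes.

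Several lower genes are known from blood vessels, and vessel markers moved with them. In a list of 20 endothelial markers, written after the values were seen, 11 were lower and none higher (median -0.87), and all 20 had reads in brain. Their summed level was 448 CPM in frozen and 531 in FFPE brain, against 593 to 1452 elsewhere. Its part in the lower calls was not tested. Caveolae and focal adhesion genes were lower for 9 of 53, and for 4 without frozen brain. Cav1, the caveolar coat protein, stood at 3.88 in frozen and 4.02 in FFPE brain against 5.31 to 6.71, and Cavin2 at 4.18 and 4.45 against 5.42 to 7.16. Klf2, a flow-responsive factor, stood at 5.65 and 5.03 against 6.31 to 7.54 (difference -1.46, SE 0.16). All 3 passed in every alternative. Of 17 Krüppel-like factors Klf2, Klf4 and Klf15 were lower and none higher. Klf4 and Klf15 had adjusted p of 0.0733 and 0.471 without frozen brain, and Klf15 0.0566 without FFPE brain. Gimap9, a GTPase of lymphocytes and endothelium, stood at 2.38 and 2.03 against 4.40 to 5.59 (6.70-fold lower).

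Epithelial and tight junction genes were lower for 12 of 57 and higher for 2, Patj and Prom2 (3.51%, beside 5.53% over all genes). Cldn3, a claudin of tubule and bile duct epithelium, stood at 3.09 in frozen and 3.40 in FFPE brain and between 4.15 and 8.31 elsewhere, and Esrp2, an epithelial splicing factor, at 4.04 and 4.53 against 5.31 to 7.47. Krt8, a keratin of simple epithelia, overlapped with other organs (3.40 in FFPE brain, 3.30 to 6.04 elsewhere). The list median was -0.09 against heart and -0.79 against kidney. Without frozen brain none of the list passed, and Cldn3, Esrp2 and Krt8 had 0.0847, 0.0834 and 0.184. Collagen and basement membrane genes were lower for 10 of 67 (median -0.18), among them Col4a2 (-0.81) and Nid2 (-0.88). None of them passed without frozen brain and 2 without FFPE brain.

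Nuclear receptors were lower for 10 of 47 and higher for 2 (4.26%, beside 5.53% over all genes). Nr0b2, a repressor in bile acid control, stood at 2.49 in frozen and 2.48 in FFPE brain and between 3.96 and 7.53 elsewhere. The paralogs Nr2f1 and Nr2f2, patterning factors of cortex and of veins and mesenchyme, went in opposite directions: Nr2f1 stood at 6.38 and 6.07 in brain against 4.03 to 5.16, and Nr2f2 at 6.17 and 6.68 against 7.13 to 8.33. Their differences were 1.60 (SE 0.25) and -1.30 (SE 0.18), and without frozen brain their adjusted p were 0.115 and 0.0918. Pgr, the progesterone receptor, was higher but overlapped with other organs (6.03 in FFPE brain, up to 6.31 elsewhere; 0.627 without frozen brain). Ppara, a fatty acid sensor, was lower (-1.18; 0.171 without frozen brain), and 1 member of the list passed in that setting.

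Among the 10 largest lower differences, 3 were Hoxb genes, which set positional identity along the trunk and hindbrain: Hoxb5, Hoxb4 and Hoxb2 differed by -3.45, -3.36 and -3.29. Tcim, a small nuclear protein of Wnt signalling, stood at 4.55 in frozen and 3.23 in FFPE brain and between 5.86 and 7.97 elsewhere (8.07-fold lower; adjusted p = 6.48e-06). Ripply1, a transcriptional repressor in somite formation, had a level of 0.06 in FFPE brain, no read in frozen brain, and 0.50 to 3.92 elsewhere. Olfr135, an olfactory receptor, had 0.51 in FFPE brain and no read in frozen brain, against 0.66 to 2.70. For Ripply1, Mir5123, Mir3058 and Olfr135 the adjusted p without frozen brain was 0.297, 0.189, 0.138 and 0.820. Mir3058 also missed without FFPE brain (0.311) and frozen kidney (0.0912), and Olfr135 without frozen heart, either kidney library or frozen liver (0.0593 to 0.0838).

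Other lists held calls in both directions or few calls. Immediate early genes gave 5 higher, Arc, Egr4, Npas4, Egr1 and Egr3, and 3 lower, Zfp36, Maff and Ier3, of 30 (median -0.01), and without frozen brain 1 higher and 1 lower. Arc, a synaptic capsid-like protein, stood at 7.56 in frozen and 7.43 in FFPE brain against 4.42 to 6.30, and Zfp36, an RNA decay factor, at 5.20 and 5.35 against 6.87 to 8.86. Npas4 and Egr4 had adjusted p of 0.221 and 0.0823 without frozen brain, and Maff 0.0844. Ier3 overlapped with other organs and had between 0.0718 and 0.447 without either brain, heart or kidney library. Of 52 Fgf, Wnt and Bmp ligands 6 were higher and 3, Bmp4, Wnt5a and Wnt9b, lower (5.77%, near the 4.53% over all genes). The strongest was Fgf14, an intracellular Fgf that binds sodium channels, at 7.02 and 6.64 in brain against 3.39 to 4.24 (8.21-fold). Fgf12 and Fgf13, of the same intracellular kind, also passed (1.93 and 1.94), chosen after their values were seen. Without frozen brain 1 ligand passed.

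Imprinted genes, of which 1 parental copy is silenced, gave 7 higher and 5 lower of 39 (median 0.28). Meg3 stood at 6.20 in frozen and 6.64 in FFPE brain against 4.54 to 6.23, and Peg13 at 7.98 and 7.67 against 6.50 to 7.68, so both overlapped with other organs by a small margin. Usp29 did not overlap (5.61 and 5.70 against 4.16 to 4.87). The lower ones were Phlda2, Grb10, Slc22a18, Cdkn1c and Ddc. No imprinted gene passed without frozen brain, and without FFPE brain 1 of the higher and 3 of the lower did. Among genes of the Zfp series, Zfp36 included, 6 of 391 were higher and 6 lower (1.53% each), beside 5.53% and 4.53% over all genes. No cytoplasmic ribosomal protein gene of 86 passed in either direction (limma), B2m was the only 1 of 28 housekeeping genes, and of 1448 olfactory and vomeronasal receptors 1 was higher and 4 lower.

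The passing genes differed in length, which the rule did not use. Protein-coding genes that were higher in brain had a median span of 37698 bases, those that were lower 14444 bases, and all protein-coding genes tested 17993 bases. Long noncoding RNAs made up 92 of the 1420 higher and 77 of the 1163 lower genes, beside 2060 of all 25680 genes tested. Where along a gene the reads were counted is not stated, and the bearing of gene span on the calls was not tested.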

How the data were processed

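Chromatin from frozen and FFPE mouse organs was immunoprecipitated with an H3K4m3 antibody and sequenced, per the labels' protocols, with library kits of 2 makers that are not tied to samples. Per the submitters' processing notes, Bowtie2, featureCounts and limma were used with the mm10 build, with no versions stated. The deposited table gives log2 values per gene. The values show log2 counts per 1e6 reads (CPM) with a small offset and a scaling of each library: whole reads came back for all values within 0.001. The scaling is not by the total of reads alone, and how it was set is not stated. In FFPE brain, with 4811825 reads, 3 reads are worth 0.569 CPM, and in frozen liver, with 2976029 reads, 1.18 CPM. Whether an FFPE column is 1 sample or merged samples is not stated.

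From these values limma 3.58.1 in R 4.3.3 was fitted to the 8 columns with organ and preservation as terms and an intensity trend, leaving 3 residual degrees of freedom. Brain was tested against the mean of the other organs and against each singly, and a model with an interaction (2 residual degrees of freedom) tested frozen against FFPE differences. Genes with a mean log2 value of at least 0 were kept, p-values were adjusted by Benjamini-Hochberg over all of them, and 0.05 was the threshold. The fit was tested on simulated data. A count of 3 reads, the floor for a gene without reads, is worth 0.537 to 1.69 CPM by library, for counting error only. The alternatives were quantile normalization, median centring, no filter or a mean of at least 2, precision weights, no intensity trend, no preservation term, and each library left out.

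Gene names follow the 14 largest higher and 10 largest lower differences that lay outside the range of the other organs, without predicted genes, plus up to 3 members of each gene list in each direction by smallest p, and the 4 markers; some of these genes are not reported here. Members and gene lists were chosen with earlier results of these data known. Sequences are from RefSeq on GRCm38.p6. A comparison of promoters between higher and lower genes was void, since windows matched 72.3% of the higher and 71.8% of the lower genes and 80% was needed.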

Additional observations from a re-analysis of the deposited data

How the results depend on the processing

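No paired analysis was possible because the columns carry no replicate number. With no intensity trend 217 genes passed, 148 higher and 69 lower (68.2% higher, beside 55.0% in the reported fit), and with no preservation term 472, 333 higher and 139 lower (70.6%). Leaving out 1 library at a time gave 326 to 4291 genes, 176 to 2212 higher and 150 to 2079 lower. Against heart, kidney and liver singly no gene (0) passed in limma with no intensity trend, and 70, 120 and 655 passed with no preservation term. The leave-one-out ranges were 270 to 2850, 205 to 2811 and 747 to 5318, and quantile normalization gave 2448 against kidney. The frozen against FFPE difference had 0 genes in the reported limma fit, with 674 at an unadjusted p under 0.05, and 0 to 4 with 1 library left out, 4 of them without FFPE liver. It could not be fitted without a brain library. Of 2731 alternative results of the 183 named genes, 2291 stayed past the threshold, 440 fell short of it and none changed sign, and 49 genes passed in every alternative. The cause of these changes was not tested. Rescaling moved the median difference of all genes by at most 0.0329. With 1 library for each organ and preservation type, and with 1792394 to 5275085 reads, differences at genes of few reads rest on single libraries.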

Other observations

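Families of genes that share the start of their symbol, chosen after their values were seen, cut across the lists above and share some of their genes. Grin genes, subunits of NMDA receptors, were higher in brain for 5 of 8 tested and lower for none. Syt genes, calcium sensors of vesicle fusion, were higher for 8 of 17, and Cacna genes, subunits of voltage-gated calcium channels, for 7 of 14. Neither family had a lower member. On the lower side Gimap genes, GTPases of lymphocytes counted here with the antisense Gimap1os, had 6 of 9 lower with a median difference of -1.05, and Irf genes, interferon regulatory factors, 6 of 12 with a median of -0.81. Rassf genes, Ras-association scaffolds linked to the Hippo kinases, had 5 of 10 lower (median -1.06), namely Rassf3, Rassf4, Rassf7, Rassf9 and Rassf10. Parp9, Parp10, Parp12 and Parp14 made up 4 lower of 12 Parp genes. Sox genes, with the overlapping transcript Sox2ot, gave 6 higher and 4 lower of 22, and the lower ones were Sox7, Sox13, Sox17 and Sox18. Sox7, Sox17 and Sox18 are known from endothelium, and the part of endothelium in this result was not tested. Sox17 and Sox18 are themselves members of the endothelial marker list above, so that list is not separate from them.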
